A study of Mus musculus with 6 samples.

Results

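The myosin heavy chain genes Myh6, Myh7, Myh7b, Myh3, Myh8, Myh1, Myh2, Myh4 and Myh14 were chosen by gene symbol, and all 9 were listed among the 24062 symbols of the count table. The first 8 of them encode sarcomeric heavy chains, whereas Myh14 at its annotated position on chromosome 7 encodes the non-muscle heavy chain II-C, although RefSeq also gives Myh14 as an older synonym of Myh7b. RNA-seq was performed on both ventricles of male mice of the inbred strain C57/Bl6N, 1 day after birth, with 3 libraries from Med12cKO mice carrying Cre recombinase (CrePOS) and 3 from control mice lacking Cre (CreNEG). Med12 encodes a subunit of the Mediator kinase module, and the comparison addresses how its loss from the heart alters ventricular gene expression. The labels name no Cre driver and do not say whether the controls carried the conditional Med12 allele. Only Med12cKO mice carried Cre, so effects of Cre and of Med12 loss cannot be told apart. The promoter of Myh6 is widely used to drive heart-specific Cre in mice, and the sources used here do not say whether it drove Cre in these mice.

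Myosin heavy chains are the motor proteins of the thick filament, and their isoforms set how fast a muscle splits ATP and shortens. In mouse heart, Myh6 (alpha) is the fast isoform of the adult ventricle and Myh7 (beta) the slow isoform of the fetal ventricle, and thyroid hormone favours Myh6 over Myh7 around birth. Myh3 (embryonic), Myh8 (perinatal), Myh2 (type IIa), Myh1 (type IIx) and Myh4 (type IIb) serve skeletal muscle and lie side by side on chromosome 11. Introns of Myh6, Myh7 and Myh7b each hold a microRNA gene, and the microRNA from Myh6 is known in mice to repress Med13, a partner of Med12 in the Mediator kinase module.

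The annotation (GENCODE M21 on GRCm38, 1-based) placed Myh6 at chr14:54941921-54966927 and Myh7 at chr14:54970684-54994626, head to tail on the minus strand. Myh7b was placed at chr2:155611212-155634307 on the plus strand and Myh14 at chr7:44605803-44670843 on the minus strand. The chromosome 11 cluster ran along the plus strand in the order Myh3 (chr11:67078300-67102291), Myh2 (chr11:67171027-67197517), Myh1 (chr11:67200052-67224575), Myh4 (chr11:67238029-67260446), Myh8 (chr11:67277124-67308634) and then Myh13, which is no member. All members are protein coding. Whether counting used strand is not given in the sources used here. Genes on the opposite strand covered 13.3% of the exon bases of Myh7, 8.11% of those of Myh1 and 3.32% of those of Myh2. None of these opposite-strand genes has a row in the count table, and how many of the counts come from them is not known. The heavy chains also resemble each other closely in sequence, so reads that match several paralogs may have been assigned wrongly or discarded.

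**Figure D1:**
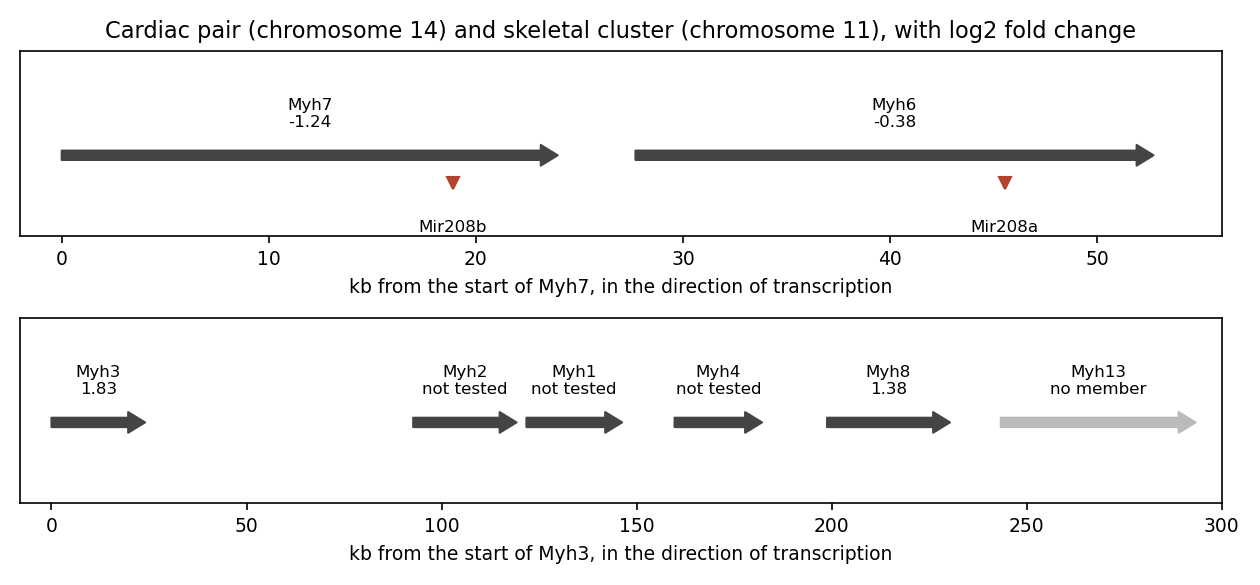
Maps of Myh7 and Myh6 on chromosome 14 (top) and of the chromosome 11 cluster (bottom), with distance in kb in the direction of transcription on the x axis and the log2 fold change of Med12cKO over control under each gene name. Arrows span the annotated genes and triangles mark the intronic microRNA genes. The cardiac pair shows −1.24 for Myh7 and −0.38 for Myh6, and Myh2, Myh1 and Myh4 had too few counts to be tested.

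The microRNAs of the cardiac members are shown because their seeds, the bases 2 to 8 that pair with targets (capitals; RefSeq, GRCm38.p6, 5′ to 3′), are the same in miR-208a and miR-208b and differ from that of miR-499 in the last base. They lie at chr14:54949072-54949093 (minus strand, in Myh6), chr14:54975710-54975731 (minus strand, in Myh7) and chr2:155622893-155622913 (plus strand, in Myh7b).
mmu-miR-208a-3p: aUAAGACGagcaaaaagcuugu
mmu-miR-208b-3p: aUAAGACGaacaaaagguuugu
mmu-miR-499-5p: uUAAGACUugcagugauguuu
The seed UAAGACG was found in 2 of the 1738 mature mouse microRNAs of the table, and the first 6 seed bases, UAAGAC, in 3 of 1738, which are those printed here.

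The 250 bases upstream of the RefSeq start are shown for Myh6 (chr14:54966608-54966857, minus strand) and Myh7 (chr14:54994627-54994876, minus strand), since both were lower in mean in Med12cKO ventricles. Capitals mark GGAATG, the core of the MCAT element bound by TEAD factors in muscle genes.
Myh6: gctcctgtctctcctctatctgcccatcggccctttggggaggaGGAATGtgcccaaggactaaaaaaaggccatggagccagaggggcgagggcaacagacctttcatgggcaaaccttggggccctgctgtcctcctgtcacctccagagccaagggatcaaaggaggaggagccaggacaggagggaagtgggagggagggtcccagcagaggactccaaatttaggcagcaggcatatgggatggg
Myh7: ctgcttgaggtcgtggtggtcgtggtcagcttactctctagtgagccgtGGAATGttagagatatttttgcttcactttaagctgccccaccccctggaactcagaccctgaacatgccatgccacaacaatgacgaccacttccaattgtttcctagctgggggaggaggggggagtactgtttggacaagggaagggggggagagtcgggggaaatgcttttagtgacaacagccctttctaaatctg
GGAATG, searched on both strands, began at −206 in Myh6 and at −201 in Myh7 relative to the start, was in no such window of Myh7b, and was present in 14.7% of 32851 RefSeq promoter windows of 300 bases. A second RefSeq start of Myh7 lies downstream, and its window held no GGAATG. The Myh6 start used by RefSeq lies inside the longer gene model of GENCODE.

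Windows of 64 bases are shown for the adult and perinatal genes of chromosome 11 because their promoters share a run of 14 bases (capitals). They lie on the plus strand of GRCm38.p6 at chr11:67170877-67170940 (Myh2), chr11:67199917-67199980 (Myh1), chr11:67237629-67237692 (Myh4) and chr11:67277045-67277108 (Myh8).
Myh2: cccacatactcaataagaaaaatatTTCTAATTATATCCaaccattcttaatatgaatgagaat
Myh1: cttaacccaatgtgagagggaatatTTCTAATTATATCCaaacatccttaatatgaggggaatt
Myh4: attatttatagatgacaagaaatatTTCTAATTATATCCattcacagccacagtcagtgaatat
Myh8: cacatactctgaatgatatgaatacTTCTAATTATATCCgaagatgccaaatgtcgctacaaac
The run began at −125 in Myh2, −160 in Myh1, −158 in Myh4 and −54 in Myh8. On both strands it occurred in 4 of 32851 RefSeq promoters, those of these 4 genes. The shared bases describe the sequence and were not tested for function.

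Libraries held 8453346, 10150557 and 9491374 counts in Med12cKO replicates 1 to 3 and 8930340, 10911698 and 10154128 counts in control replicates 1 to 3. Some libraries stood apart in transcripts of other tissues. The summed level of 12 thymocyte markers was 837, 4.54 and 4.95 CPM in Med12cKO replicates 1 to 3, against 5.52, 3.43 and 830 CPM in control replicates 1 to 3, so that Med12cKO replicate 1 and control replicate 3 were high. The 5 lung epithelium markers summed to 78.5 CPM in Med12cKO replicate 2 and 55.5 CPM in control replicate 1, the libraries whose descriptions open with the letter J, and to less than 1 CPM in the other libraries. Med12 itself was measured at 61.6, 85.0 and 41.3 CPM in Med12cKO libraries, against 103, 176 and 113 CPM in controls, with every Med12cKO library below every control (log2 fold change −1.06, SE 0.30, edgeR adjusted p = 0.765, DESeq2 adjusted p = 0.0246). Of 13629 genes that passed the filter on low counts, 3 passed edgeR's quasi-likelihood test at a Benjamini-Hochberg adjusted p under 0.05, which is 0.022% (1 higher and 2 lower in Med12cKO). CPM denotes counts per library brought to a common size with TMM factors, and values per group are mean ± SD with n = 3 libraries each.

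In the ventricle, the 3 heavy chain genes with cardiac expression were all lower in mean in Med12cKO libraries, Myh7 most, at 42.2% of its control mean, then Myh7b at 60.8% and Myh6 at 77.0%. Myh14 was higher, at 210% of its control mean. The skeletal genes Myh3, Myh8, Myh1, Myh2 and Myh4 were highest in Med12cKO replicate 1, where Myh4 still had only 8 counts. None of these differences passed edgeR's test over all genes.

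Of the 9 members, 6 passed the filter on low counts and 3 (Myh1, Myh2 and Myh4) did not. Of those 6, 0 passed at an adjusted p under 0.05, against 0.022% of all genes tested. At an unadjusted p under 0.05 there were 3 members, namely Myh7 and Myh7b lower and Myh14 higher, where 3.78% of all genes tested passed. The groups did not overlap for the same 3 members, and this held for 8.23% of all genes tested. DESeq2 called 1 member, Myh14, against 0.508% of the 12795 genes for which it gave an adjusted p. Myh3 reached 10 counts in 3 libraries only, Med12cKO replicates 1 and 2 and control replicate 2. The counts over tested members leave out Myh1, Myh2 and Myh4 and do not describe all members.

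**Figure D2:**
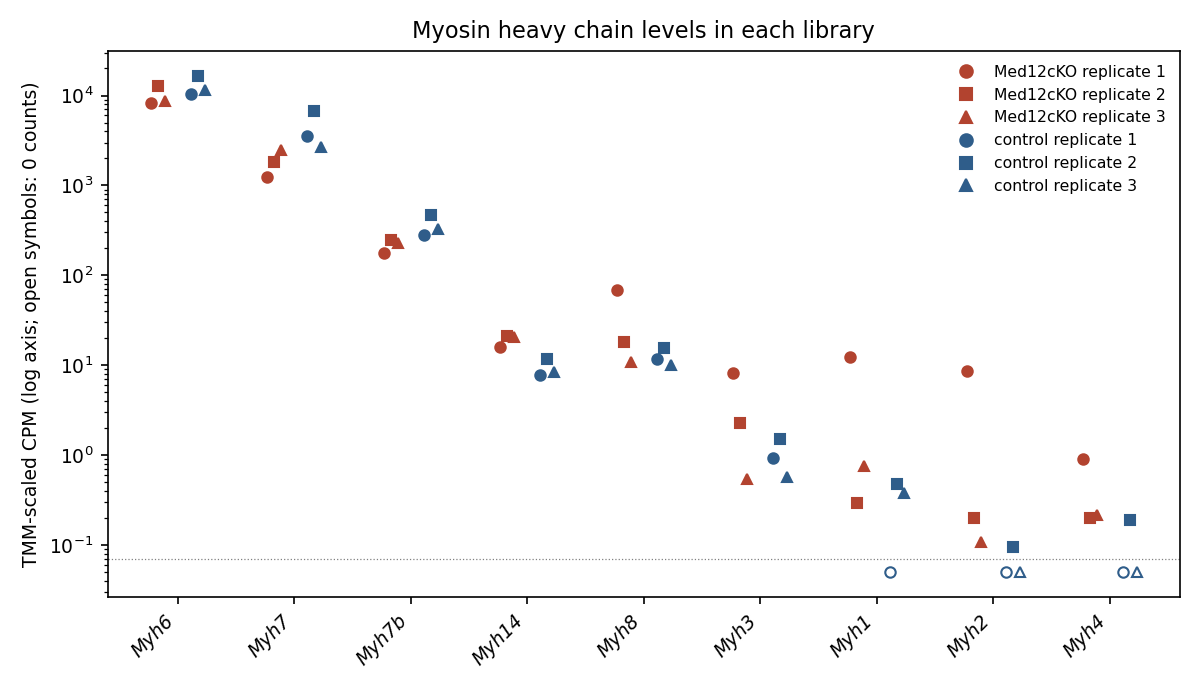
TMM-scaled CPM of the 9 heavy chain genes in each of the 6 libraries (y axis, log scale), with Med12cKO libraries in red left of control libraries in blue, and open symbols below the dotted line for 0 counts. Among the 6 members tested, Myh7, Myh7b and Myh14 have groups that do not overlap. The groups of Myh2 and Myh4, which were not tested, do not overlap either. Their counts are very low outside Med12cKO replicate 1, and those of Myh4 are low there too. Med12cKO replicate 1 stands above all other libraries for Myh8, Myh3, Myh1, Myh2 and Myh4.

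Myh6, the fast alpha heavy chain, was measured at 8242, 12613 and 8725 CPM in Med12cKO replicates 1 to 3, against 10324, 16667 and 11423 CPM in control replicates 1 to 3. The groups overlapped, since Med12cKO replicate 2 exceeded 2 of the controls, and replicate 2 was the highest library in each group. The means were 9860 ± 2396 CPM in Med12cKO and 12805 ± 3390 CPM in controls. The log2 fold change was −0.38 (SE 0.25, edgeR adjusted p = 0.9999), and it was −0.14 without control replicate 2. Myh6 had the highest count of all genes in every library except control replicate 1, where it ranked 2.

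Myh7, the slow beta heavy chain, was measured at 1233, 1799 and 2475 CPM in Med12cKO replicates 1 to 3, against 3575, 6782 and 2688 CPM in control replicates 1 to 3. Every Med12cKO library lay below every control, but Med12cKO replicate 3 was close to control replicate 3, and control replicate 2 was far above all others. The means were 1836 ± 622 CPM in Med12cKO and 4348 ± 2154 CPM in controls. Myh7 had a log2 fold change of −1.24 (SE 0.39), with an unadjusted p of 0.0132 and an edgeR adjusted p of 0.882. DESeq2 gave the same direction with an adjusted p of 0.724. Without control replicate 2 the log2 fold change of Myh7 was −0.77, and without Med12cKO replicate 3 it was −1.52. Within the libraries with the letter J, Myh7 was at 1799 CPM in the Med12cKO library and 3575 CPM in the control library, and with Med12cKO replicate 1 and control replicate 3 both left out its log2 fold change was −1.28 (SE 0.33). In tissue RNA, fewer cells of a type and less RNA per cell cannot be told apart.

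Myh7b, the ancient slow-tonic heavy chain that hosts miR-499, was measured at 179, 249 and 231 CPM in Med12cKO replicates 1 to 3, against 280, 473 and 330 CPM in control replicates 1 to 3. All Med12cKO libraries were below all controls, and control replicate 2 was again the highest. The means were 220 ± 36.5 CPM in Med12cKO and 361 ± 100 CPM in controls. The log2 fold change of Myh7b was −0.72 (SE 0.21, unadjusted p = 0.0073, edgeR adjusted p = 0.696), and the DESeq2 adjusted p was 0.0879. Without control replicate 2 the log2 fold change of Myh7b was −0.47. Control replicate 2 was thus the highest library for Med12, Myh6, Myh7 and Myh7b alike, and its part in these differences was measured only by leaving it out.

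The balance of the cardiac isoforms was described by the share of Myh7 in the counts of Myh6 plus Myh7, which needs no scaling between libraries. Myh7 made up 13.0% (95% Wilson interval 12.8 to 13.2), 12.5% (12.3 to 12.7) and 22.1% (21.8 to 22.3) in Med12cKO replicates 1 to 3. The share was 25.7% (25.5 to 26.0), 28.9% (28.7 to 29.1) and 19.1% (18.9 to 19.3) in control replicates 1 to 3, and the intervals cover counting error only. The groups overlapped, since Med12cKO replicate 3 had a higher Myh7 share than control replicate 3, while Med12cKO replicates 1 and 2 lay below all controls. The means were 15.9% ± 5.40 in Med12cKO and 24.6% ± 5.04 in controls, and the difference of −8.70 percentage points ran from −11.8 to −6.52 when each library was left out in turn. Expressed as a ratio, Myh6 counts were 6.69, 7.01 and 3.53 times Myh7 counts in Med12cKO libraries and 2.89, 2.46 and 4.25 times in controls. The 9 members together took 1.02%, 1.47% and 1.12% of all counts in Med12cKO libraries and 1.38%, 2.30% and 1.49% in controls, with overlapping groups.

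**Figure D3:**
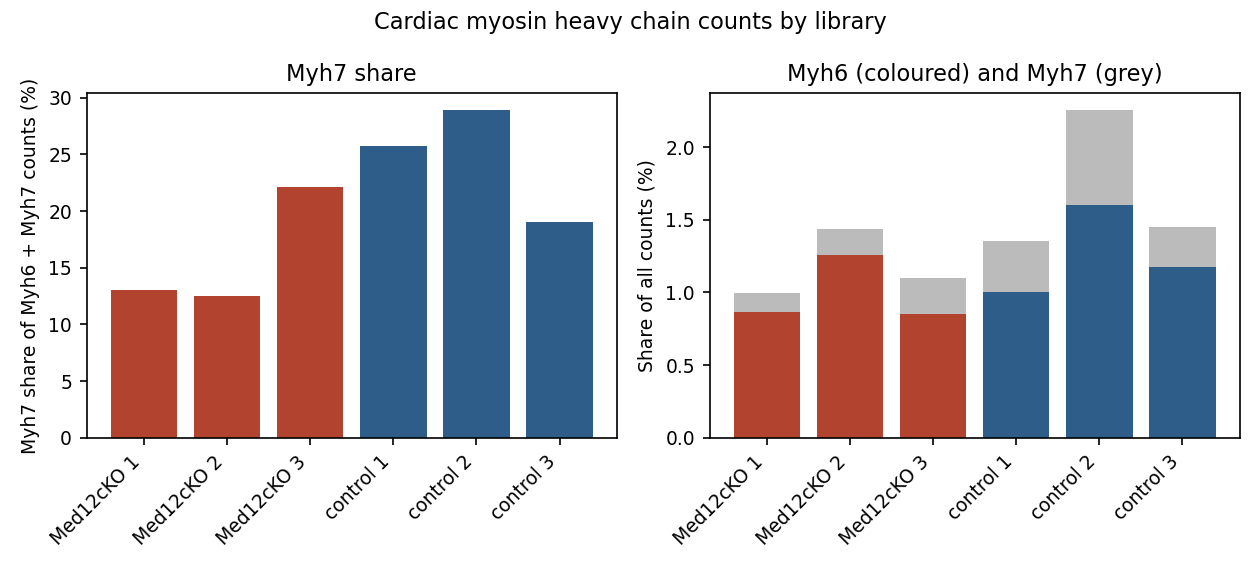
Left, the share of Myh7 in Myh6 plus Myh7 counts (percent) in each library. Right, Myh6 (coloured) and Myh7 (grey) as stacked shares of all counts (percent), with Med12cKO libraries in red left of control libraries in blue. Med12cKO replicates 1 and 2 have the lowest Myh7 shares (13.0% and 12.5%), and Med12cKO replicate 3 (22.1%) lies above control replicate 3 (19.1%).

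Levels were set side by side between genes as TMM-scaled CPM per kb of the transcript with the longest coding sequence. Myh6 averaged 1613 ± 392 CPM per kb in Med12cKO and 2095 ± 555 in controls. Myh7 followed at 295 ± 99.8 CPM per kb in Med12cKO and 698 ± 346 in controls, and Myh7b at 35.7 ± 5.91 in Med12cKO and 58.6 ± 16.3 in controls. Myh6, Myh7 and Myh7b kept this order in all 6 libraries with no overlap between neighbours. Below them, Myh8 averaged 5.30 ± 5.14 CPM per kb in Med12cKO and 2.03 ± 0.48 in controls, and Myh14 2.99 ± 0.44 in Med12cKO and 1.42 ± 0.32 in controls. Myh8 was above Myh14 in Med12cKO replicate 1 and below it in Med12cKO replicates 2 and 3, while it was above Myh14 within each control library. Myh3, Myh1, Myh2 and Myh4 each averaged less than 1 CPM per kb in either group.

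The intronic microRNA genes had rows of their own, which hold reads over the hairpin segment of the host intron and are no measure of mature microRNA. Mir208a, inside Myh6, had 8, 38 and 8 counts in Med12cKO libraries, against 19, 47 and 12 counts in controls. Its groups overlapped, and replicate 2 was far above the other libraries in both groups (log2 fold change −0.49, SE 0.69, edgeR adjusted p = 0.9999). The log2 fold change of Mir208a was 0.16, the opposite direction, without control replicate 2. Mir208b, inside Myh7, had 0, 1 and 2 counts in Med12cKO libraries, against 3, 10 and 4 counts in controls. Mir499, inside Myh7b, had 0, 1 and 2 counts in Med12cKO libraries, against 2, 5 and 3 counts in controls. Both were too low to be tested, and the 0 counts in Med12cKO replicate 1 allow a level of up to 0.355 CPM. Mir208b summed to 3 counts in Med12cKO and 17 in controls, the same direction as its host Myh7.

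Myh14, the non-muscle heavy chain II-C, had 143, 216 and 193 counts in Med12cKO libraries, against 67, 122 and 87 counts in controls. This was 16.1, 21.3 and 20.8 CPM in Med12cKO replicates 1 to 3 and 7.71, 11.6 and 8.32 CPM in control replicates 1 to 3. All Med12cKO libraries were above all controls, with similar spread in both groups. The means were 19.4 ± 2.85 CPM in Med12cKO and 9.22 ± 2.10 CPM in controls. The log2 fold change of Myh14 was 1.07 (SE 0.21, unadjusted p = 6.0e-04). It did not pass edgeR's test (adjusted p = 0.241) and passed in DESeq2 (log2 fold change 1.08, SE 0.25, adjusted p = 0.0077). Across 16 alternative settings the log2 fold change of Myh14 stayed between 0.96 and 1.28.

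Among the developmental skeletal isoforms, Myh8 (perinatal) had 611, 182 and 102 counts in Med12cKO libraries, against 103, 165 and 104 counts in controls. Med12cKO replicate 1 was far above the rest, Med12cKO replicate 2 was slightly above the highest control and Med12cKO replicate 3 was within the control range, so the groups overlapped. The level of Myh8 was 68.9, 18.0 and 10.98 CPM in Med12cKO replicates 1 to 3 and 11.9, 15.7 and 9.95 CPM in control replicates 1 to 3. The log2 fold change of Myh8 was 1.38 (SE 0.76, edgeR adjusted p = 0.9999) with all libraries and 0.20 without Med12cKO replicate 1. Myh3 (embryonic) had 72, 23 and 5 counts in Med12cKO libraries, against 8, 16 and 6 counts in controls. Its groups overlapped as well, with Med12cKO replicate 3 below every control. The log2 fold change of Myh3 was 1.83 (SE 0.91, edgeR adjusted p = 0.9999) and 0.48 without Med12cKO replicate 1.

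The adult fast isoforms Myh1 and Myh2 were near the limit of detection in all libraries but Med12cKO replicate 1, and Myh4 was near it in every library. Myh1 (type IIx) had 110, 3 and 7 counts in Med12cKO libraries, against 0, 5 and 4 counts in controls. Myh2 (type IIa) had 76, 2 and 1 counts in Med12cKO libraries, against 0, 1 and 0 counts in controls. Myh4 (type IIb) had 8, 2 and 2 counts in Med12cKO libraries, against 0, 2 and 0 counts in controls. Med12cKO replicate 1 held 91.7% of the Med12cKO counts of Myh1, 96.2% of those of Myh2, 72.0% of those of Myh3, 66.7% of those of Myh4 and 68.3% of those of Myh8. With that library set aside, the other 2 Med12cKO libraries held 10, 3 and 4 counts of Myh1, Myh2 and Myh4 in sum, against 9, 1 and 2 counts in the 3 controls. In control replicate 1, 0 counts allow a level of up to 0.336 CPM.

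Some skeletal muscle markers were, like these isoforms, far higher in Med12cKO replicate 1 than elsewhere, but others were not. The summed level of 18 skeletal markers was 242, 90.6 and 80.8 CPM in Med12cKO replicates 1 to 3, against 86.9, 84.4 and 77.6 CPM in control replicates 1 to 3. Of these 18 markers, 9 were tested and 0 passed edgeR's test. At an unadjusted p under 0.05, 1 was higher and 0 lower, namely Mybpc2, the only one that DESeq2 called. Of all genes, 3.78% had an unadjusted p under 0.05 in edgeR's test, and DESeq2 called 0.508%. By library, 0, 4 and 5 of the 18 were at 0 counts in Med12cKO replicates 1 to 3 and 4, 4 and 1 in control replicates 1 to 3. The fast light chain gene Mylpf had 385, 74 and 52 counts in Med12cKO libraries and 42, 54 and 65 counts in controls. The fast troponin gene Tnnt3 had 260, 59 and 49 counts in Med12cKO libraries and 37, 50 and 53 counts in controls. Mybpc2 was high in every Med12cKO library, at 164, 169 and 109 counts against 63, 86 and 56 in controls. Actn3 had 79, 20 and 16 counts in Med12cKO libraries and 11, 28 and 77 in controls. Tnni2 had 138, 26 and 21 counts in Med12cKO libraries and 63, 49 and 61 in controls. The defining factors were low everywhere, Myod1 at 3, 0 and 0 counts in Med12cKO libraries and 0, 2 and 2 in controls, and Myog at 11, 1 and 6 counts in Med12cKO libraries and 4, 5 and 9 in controls. The part of skeletal muscle tissue in the counts of Med12cKO replicate 1 was not tested. Myh7, which is also the slow skeletal isoform, was lower in Med12cKO replicate 1 (1233 CPM) than in any other library. As the heart expresses Myh7 too, its level does not measure skeletal muscle tissue.

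**Figure D4:**
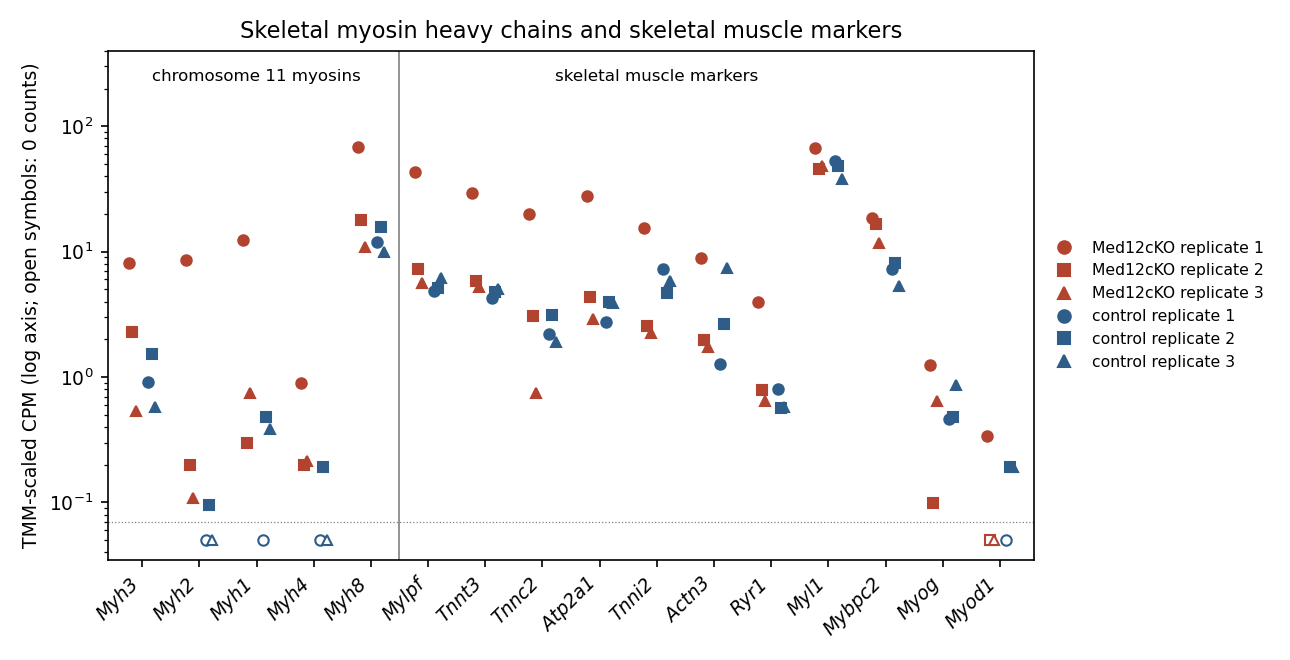
TMM-scaled CPM (y axis, log scale) of the 5 chromosome 11 heavy chain genes (left) and of skeletal muscle markers (right) in each library, with Med12cKO in red left of control in blue and open symbols for 0 counts. Med12cKO replicate 1 (red circles) is the highest library for each of the 5 heavy chain genes and for each of the 11 markers plotted, for example Mylpf at 43.4 CPM. The list holds 18 markers. Of those not plotted, Myf6, Cacna1s, Cacng1 and Chrna1 were highest in Med12cKO replicate 1 too. Myf5, Pax3 and Pax7 were highest in a control library, with 4 counts or fewer in every library.

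The genes around the heavy chains were examined in lists of thick-filament partners, folding factors and regulators. Of 17 light chain and thick-filament genes, 16 were tested and 0 passed edgeR's test, with 3 higher and 3 lower at an unadjusted p under 0.05. Their median log2 fold change was −0.05, beside 0.01 for all genes tested. Of all genes tested, 3.78% had an unadjusted p under 0.05. Myl7, the atrial regulatory light chain, was at 496, 609 and 432 CPM in Med12cKO replicates 1 to 3, against 1240, 1149 and 901 CPM in control replicates 1 to 3. All Med12cKO libraries were below all controls for Myl7 (log2 fold change −1.10, SE 0.18, edgeR adjusted p = 0.129, DESeq2 adjusted p = 2.1e-07). Mybphl, an atrial binding protein H-like gene, was lower (log2 fold change −0.55, SE 0.12, edgeR adjusted p = 0.302, DESeq2 adjusted p = 0.0254). The skeletal myosin-binding protein C genes Mybpc2 (log2 fold change 1.17, SE 0.24) and Mybpc1 (log2 fold change 2.36, SE 0.75) were higher without passing edgeR's test, with DESeq2 adjusted p-values of 0.0153 for Mybpc2 and 0.0330 for Mybpc1. DESeq2 called 2 genes of this list higher and 2 lower, against 0.508% of all genes for which it gave an adjusted p. Without Med12cKO replicate 1 and control replicate 3 the log2 fold change of Mybpc1 was 0.99. Mybpc1 was at 21.2 CPM in Med12cKO replicate 1, against 4.64 and 3.77 CPM in the other Med12cKO libraries and 1.61, 2.57 and 1.53 CPM in controls.

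Of 11 folding and turnover genes, such as the myosin chaperone gene Unc45b, 11 were tested and 0 passed edgeR's test, and the median log2 fold change was −0.02. Hsp90aa1, a chaperone that works with Unc45b, had the lowest p of that list (log2 fold change 0.33, SE 0.13). Of 26 regulators of the switch between Myh6 and Myh7, 25 were tested and 0 passed edgeR's test, with a median of −0.00. At an unadjusted p under 0.05, 0 were higher and 1 was lower, close to the share of 3.78% over all genes tested. The 1 lower gene was Rxra, the partner of thyroid hormone receptors, at 103, 105 and 111 CPM in Med12cKO libraries, against 129, 140 and 132 CPM in controls. Rxra was below all controls in all Med12cKO libraries (log2 fold change −0.33, SE 0.11, edgeR adjusted p = 0.834). Thra, the main thyroid hormone receptor gene of the heart, had overlapping groups (log2 fold change −0.15, SE 0.15). Med13, the target of the microRNA of Myh6, was at 111, 117 and 76.9 CPM in Med12cKO libraries and 100.5, 101 and 104 CPM in controls, with overlap. Thra and Med13 were chosen after their values were seen. Of 11 fibre type regulators, 10 were tested, 0 passed edgeR's test and 0 had an unadjusted p under 0.05, and their median log2 fold change was −0.09.

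**Figure D5:**
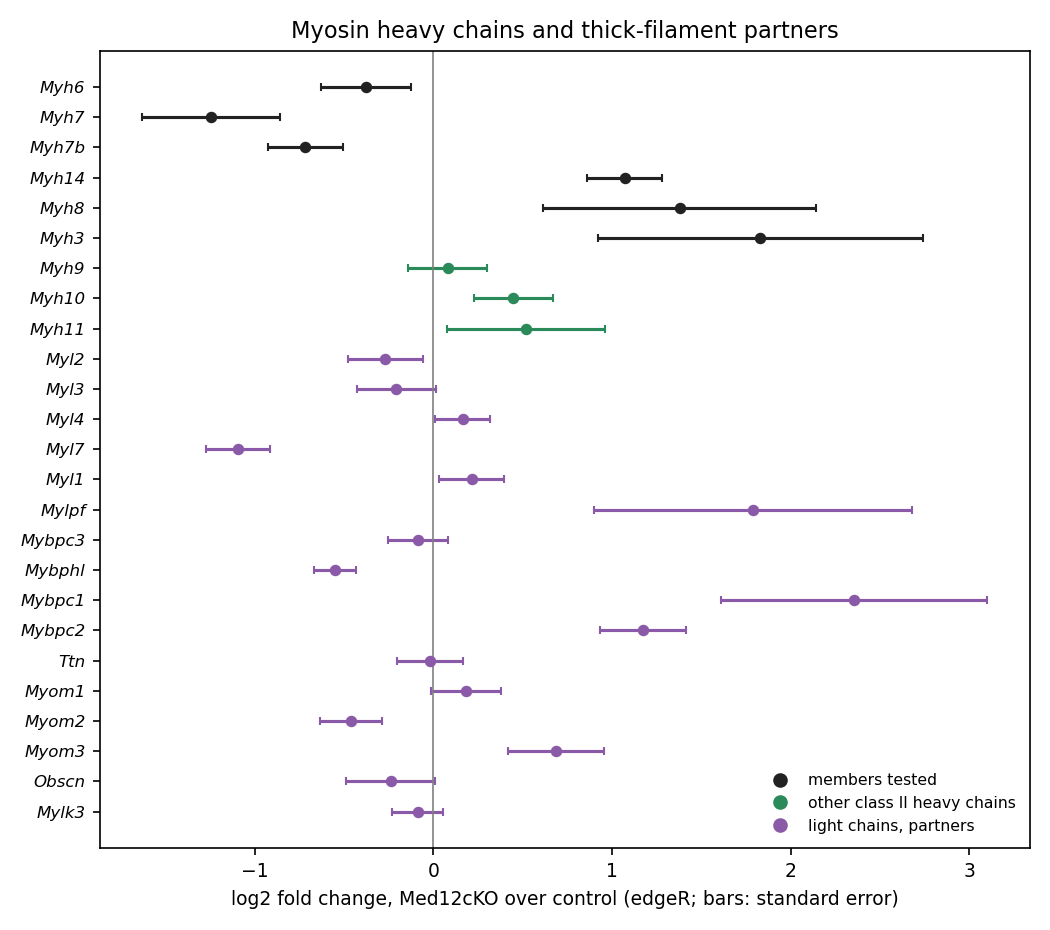
Log2 fold change of Med12cKO over control (x axis, edgeR) with its standard error (bars) for the 6 members tested (black), other class II heavy chains (green) and thick-filament partners (purple). Myh7 and Myl7 lie near −1 and Myh14 near 1, and the genes with the widest bars (Myh3, Myh8, Mylpf, Mybpc1) are those in which Med12cKO replicate 1 stands above the rest.

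Of 5 other class II heavy chain genes, 3 were tested and 0 passed edgeR's test, with a median log2 fold change of 0.45. Myh9 (non-muscle II-A) differed by 0.08 (SE 0.22), Myh10 (non-muscle II-B) by 0.45 (SE 0.22) and Myh11 (smooth muscle) by 0.52 (SE 0.44) on the log2 scale. Each of these 3 had overlapping groups, unlike Myh14, and the difference between Myh14 and Myh10 was not tested. Myh13, the last gene of the chromosome 11 cluster, and Myh15 were too low to be tested.

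Markers of the heart chambers were read beside the cardiac isoforms. The list of 9 ventricular markers also holds genes of heart muscle in general, such as Ryr2. Of these 9, 0 passed edgeR's test and all 9 had negative log2 fold changes. Their median was −0.30, beside 0.01 for all genes tested. At an unadjusted p under 0.05, 3 were lower and were called lower by DESeq2 (Hey2, Ryr2 and Pln). The summed level of the 9 was 24694, 27036 and 32518 CPM in Med12cKO replicates 1 to 3, against 41990, 33174 and 30087 CPM in control replicates 1 to 3, with overlap. Of 10 atrial markers, 0 passed edgeR's test and 6 were lower at an unadjusted p under 0.05. DESeq2 called 4 lower (Gja5, Myl7, Mybphl and Dkk3). The median of the list was −0.41, with 8 negative and 2 positive values. Of all genes, 3.78% had an unadjusted p under 0.05 in edgeR's test, and DESeq2 called 0.508%, in either direction. Gja5, a connexin gene of the atrial list, averaged 93.2 ± 10.5 CPM in Med12cKO and 186 ± 23.1 CPM in controls (edgeR adjusted p = 0.0920). Both lists thus had negative medians beside Myh7 and Myh7b, and the part of cell numbers in those differences was not tested. Of 6 smooth muscle markers, 5 had positive and 1 negative log2 fold changes (median 0.59), and 3 were higher at an unadjusted p under 0.05. Their summed level was 1371, 1963 and 1233 CPM in Med12cKO replicates 1 to 3, against 1221, 808 and 662 CPM in control replicates 1 to 3. Of these 6, 1 passed edgeR's test, namely the calponin gene Cnn1. It rose to 91.9 ± 21.6 CPM in Med12cKO, against 28.4 ± 5.25 CPM in controls (log2 fold change 1.70, SE 0.20, edgeR adjusted p = 0.0464). Cnn1 kept its direction under all 16 alternatives but passed under 8 of them, and its adjusted p reached 0.276 without control replicate 2.

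Genes whose level across the 6 libraries was most like that of a member were sought among 10786 genes with an average log2 CPM of at least 3, by Pearson correlation of log2 CPM. The closest genes were Bahcc1 (r = 0.991), Plxnb1 (0.989) and Otud7b (0.989) for Myh6. They were Msl1 (r = 0.993), Gpr157 (0.990) and Ntn1 (0.989) for Myh7, and Ifltd1 (r = 0.995), Lpin1 (0.989) and Fbxo32 (0.987), a muscle ubiquitin ligase gene, for Myh7b. For Myh8 they were Aen (r = 0.969), Rnf149 (0.968) and the fast troponin gene Tnnt3 (0.957), all highest in Med12cKO replicate 1. Each correlation rests on the same 6 libraries, whose depth and markers of other tissues differ, so with so many genes searched these values describe a likeness and carry no test. The spans of these genes were unequal: Msl1 ranged only from 148 to 176 CPM over the libraries in which Myh7 ranged from 1233 to 6782 CPM.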

How the data were processed

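The authors deposited 1 table of unnormalized, whole-number counts for each gene symbol. Per the submitters' processing notes, reads were handled with featureCounts, edgeR 3.14.0 and TopHat2 2.0.0 on GRCm38 (mm10). Read length, strandedness and annotation are not given in the sources used here. Groups and replicate numbers came from the sample titles. Each sample description opens with its own letter and number, but no label says whether these stand for animals. The p-values thus reflect the spread among these libraries, which may be technical. Within groups, no library repeated another (chi-square divided by its degrees of freedom, 14.5 to 29.3 for library pairs).

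The main test was the quasi-likelihood F test of edgeR 4.0.16 (R 4.3.3) with TMM scaling, robust dispersions, and a filter of about 10 counts in at least 3 libraries and 15 counts in total (filterByExpr), with Benjamini-Hochberg adjustment over all 13629 genes tested. Standard errors were obtained from the log2 fold change and the square root of F. Depth of 8453346 to 10911698 counts makes 3 counts, the limit that a count of 0 allows, equal to 0.275 to 0.355 CPM before TMM scaling; limits and intervals cover counting error only, since reads are not independent molecules. Alternatives were DESeq2 1.42.0, limma-voom (limma 3.58.1), other scalings and filters, the replicate number or the description letter as a block, and libraries left out. Removal of an exon length and GC trend (spline, 4 degrees of freedom, 13002 genes or 95.4% with values) was added later. The members, gene lists and tests were chosen with earlier results of these data known. All 9 members are named. From each list, genes that passed and up to 4 with the lowest p could be named. Myod1, Myog, Unc45b, Thra, Med13, Myh13 and Myh15 were named outside that rule, after their values were seen. For likeness the 3 genes with the highest correlation were taken. Positions are from GENCODE M21, microRNAs and promoters from RefSeq, which matched all 9 members and 3 microRNAs.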

Additional observations from a re-analysis of the deposited data

How the results depend on the processing

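The log2 fold changes of the 6 tested members and the difference in Myh7 share kept their direction under all alternatives run. So did Med12, which passed with DESeq2 only among 16 alternatives. For Myh8 and Myh3, however, the direction rested on little without Med12cKO replicate 1 and control replicate 3 together. The log2 fold change was then smaller than its SE, at 0.06 (SE 0.30) for Myh8 and 0.19 (SE 0.65) for Myh3. The number of genes higher in Med12cKO was 1 in the main test and 32 with DESeq2, 2 with library totals only, and 2 without Med12cKO replicate 1 and control replicate 3 together. It was 0 with the size factors of DESeq2 in edgeR, 0 with the replicate block and 0 with the length and GC trend removed. At an unadjusted p under 0.05 in either direction, these settings gave 519, 537 and 707 genes, against 515 genes in the main edgeR test. The number lower was 2 in the main test and 33 with DESeq2. Leaving out each library in turn gave 0 to 1 genes higher and 1 to 2 lower. It was 0 higher without control replicate 1 or Med12cKO replicate 3, and 1 lower without Med12cKO replicate 3. At an unadjusted p under 0.05 in either direction, 455 genes passed without control replicate 1 and 1071 without Med12cKO replicate 3. Of the members, 0 passed edgeR's test (3 at an unadjusted p under 0.05) and 1 passed DESeq2, namely Myh14 (log2 fold change 1.08, adjusted p = 0.0077). The cause of these differences was not tested.

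With each library left out in turn, the log2 fold change ran from −1.52 to −0.77 for Myh7, from −0.87 to −0.47 for Myh7b, from −0.60 to −0.14 for Myh6 and from 0.96 to 1.28 for Myh14. For Myh8 it ran from 0.20 to 1.79 and for Myh3 from 0.48 to 2.34, both lowest without Med12cKO replicate 1. Myh3 could not be fitted under the filter of at least 1 CPM, and Myh1, Myh2 and Myh4 were fitted only without a low-count filter.

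No label says that the replicate numbers pair the samples. Deviations from the group means of libraries with the same number correlated at −0.29, 0.53 and −0.31 over 10705 genes. These correlations cannot decide whether samples were paired. Deviations within a group of 3 libraries are tied to each other, and the libraries differ in markers of other tissues. Replicate 2 alone correlated best with its own number. The highest correlation, 0.75, was between Med12cKO replicate 1 and control replicate 3, both high in thymocyte markers. Med12cKO replicate 3 and control replicate 1 correlated at 0.39. With the replicate block, the log2 fold change was −1.20 for Myh7, −0.70 for Myh7b, −0.37 for Myh6, 1.08 for Myh14, 0.95 for Myh8 and 1.38 for Myh3, and 0 members passed edgeR's test.

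Depth limits the fast skeletal isoforms, whose controls held 9, 1 and 2 counts of Myh1, Myh2 and Myh4 in sum, and the microRNA hairpins. With 3 libraries a group and a wide spread in controls, differences of the size seen for Myh6 and Myh7 could not be told from the spread between libraries after adjustment.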
